A study of Mus musculus with 15 samples.

Results

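The genes described here encode 7 dual-specificity phosphatases (Dusp1, Dusp4, Dusp5, Dusp6, Dusp8, Dusp10 and Dusp16) and 3 Sprouty proteins (Spry1, Spry2 and Spry4), 10 of the 25748 gene symbols in the count files. They were chosen by symbol with earlier results of these data known, so their counts and medians beside those of all genes are descriptions only. All 10 had enough counts to be among the 15362 genes tested. The libraries hold polyadenylated RNA of primary mouse brain astrocytes, which are glia that help neurons work and react to damage, in 3 groups of 5. One group is labelled control, with no agent named. The LPS group, which the submitters label SCI, received 1 µg/mL lipopolysaccharide, the bacterial cell wall component sensed by the receptor TLR4, over 6 to 8 h. In the group called Rg1 plus LPS here, ginsenoside Rg1, a saponin of ginseng, was given at 80 µM for 12 h, followed by LPS at that dose for that time. The treatment field numbers this last group's libraries Rg1 to Rg5, and the titles and design text, which give 5 replicates of Rg1, were followed. Neither strain nor age of the mice was given in the sources used here. No Rg1 group without LPS is among these samples, so the effect of Rg1 by itself was not measured. The labels do not tie the 5 replicates of a group to different cultures or mice, so the p-values reflect only how far these samples spread, which may be technical.

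Mitogen-activated protein kinases (MAPKs) pass signals from receptors to the nucleus through cascades that end in ERK, JNK or p38. Dual-specificity phosphatases of this class remove the activating phosphates from the threonine and the tyrosine of a MAPK and so switch it off. Sprouty proteins act further upstream and dampen signalling from receptor tyrosine kinases to ERK. Many of these genes are switched on by the pathway they restrain, so that they act as negative feedback. Dusp1, Dusp4 and Dusp5 encode inducible phosphatases of the nucleus, Dusp6 encodes a cytoplasmic phosphatase of ERK, and Dusp8, Dusp10 and Dusp16 encode phosphatases that act mainly on JNK and p38.

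Library totals lay between 34.2 and 41.76 M counts. All 9 astrocyte markers looked at were present, led by Gfap at a control mean of 4020 CPM (counts per M, after TMM scaling of library sizes). Fibroblast and pericyte markers were also abundant, with Col1a2 at 2090 CPM and Col1a1 at 1330 CPM in control. Their summed level over 6 genes ranged from 3590 to 4760 CPM in control, 3940 to 5420 CPM in LPS and 1780 to 5320 CPM in Rg1 plus LPS. Microglia and macrophage markers were low, at a sum over 12 genes of 52.3 to 120 CPM in control, 59.5 to 114 CPM in LPS and 45.0 to 72.2 CPM in Rg1 plus LPS. Among neuronal markers Rbfox3 and Snap25 were near 0 (6 and 22 counts over all 15 libraries), while Stmn2 stood at 434 CPM in control. Of 6 endothelial markers Cldn5 and Pecam1 were near 0 (5 and 63 counts in all), while Cdh5 stood at 121, 141 and 86.8 CPM in control, LPS and Rg1 plus LPS. Their sum was 131 to 158 CPM in control, 166 to 193 CPM in LPS and 92.4 to 109 CPM in Rg1 plus LPS, without overlap, and 2 of the 4 tested (Flt1 and Cdh5) fell from LPS to Rg1 plus LPS. Of the astrocyte markers 5 of 9 fell under LPS, and of the microglia markers 0 of 12 passed under LPS and 7 of 12 fell from LPS to Rg1 plus LPS. The microglia sum was led by Tmem119 (30.7, 28.4 and 36 CPM in control, LPS and Rg1 plus LPS), which did not pass. Of the 7 that fell, Itgam went from 3.65 CPM in LPS to 0.549 CPM and Csf1r from 5.96 to 1.31 CPM. The other 5 did not pass. From LPS to Rg1 plus LPS 4 of 9 astrocyte markers rose and 1 fell, and against control 4 fell. Of 6 oligodendrocyte lineage markers tested, 1 fell under LPS, and 2 rose and 2 fell from LPS to Rg1 plus LPS. Among them Pdgfra had 42.2, 17.9 and 12 CPM in the 3 groups. These marker counts stand beside 13.8% of all genes tested that rose and 9.82% that fell under LPS (edgeR, adjusted p under 0.05). From LPS to Rg1 plus LPS 22.2% of all genes rose and 23.2% fell, and against control 18.8% rose and 18.1% fell. Mitochondrially encoded genes took 2.49% to 2.80% of counts in control, 1.58% to 2.37% in LPS and 2.77% to 4.98% in Rg1 plus LPS. The part of these shifts in the results on the 10 genes was not tested. In bulk samples like these, fewer cells of a type and less RNA per cell cannot be told apart.

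On GRCm38.p6, Dusp1 lies on chromosome 17 at 26505591 to 26508472, Dusp4 on 8 at 34807610 to 34819894, Dusp5 on 19 at 53529145 to 53541809 and Dusp6 on 10 at 99263231 to 99267489. Dusp8 lies on chromosome 7 at 142079487 to 142095907, Dusp10 on 1 at 184034381 to 184075636 and Dusp16 on 6 at 134715468 to 134807063. Spry1 lies on chromosome 3 at 37639947 to 37644599, Spry2 on 14 at 105891947 to 105896819 and Spry4 on 18 at 38586247 to 38601347. Annotated transcripts of the opposite strand overlap Dusp5 by 511 bases, Dusp8 by 150, Dusp16 by 947, Spry1 by 710 and Spry4 by 71 and 119. The strand setting of the counting is not given, so reads of these overlaps cannot be assigned to one strand.

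The RefSeq promoter table for GRCm38.p6, which holds 250 bases before to 50 bases after each start, matched 8 of the 10 genes and held neither Dusp4 nor Spry4. Dusp5 and Dusp8 are shown as the phosphatase genes with the lowest and the highest change under LPS. Dusp1 is shown as 1 of 2 with no detectable change. The other, Dusp6, is not shown, and its window held no match to any motif named below. The 250 bases before the start are chr19:53528895-53529144 on the plus strand for Dusp5, and chr7:142095285-142095534 and chr17:26508473-26508722, both on the minus strand, for Dusp8 and Dusp1. The Dusp8 window precedes the RefSeq start used in the table and lies inside the longer annotated span of the gene given above. Each is written 5′ to 3′ along the gene, and capitals mark matches to the cyclic AMP response element (CRE, TGACGTCA), to its 5-base core (TGACG) or to the serum response factor CArG box, searched on both strands. Matches of the core inside the full CRE overlap it.
Dusp5: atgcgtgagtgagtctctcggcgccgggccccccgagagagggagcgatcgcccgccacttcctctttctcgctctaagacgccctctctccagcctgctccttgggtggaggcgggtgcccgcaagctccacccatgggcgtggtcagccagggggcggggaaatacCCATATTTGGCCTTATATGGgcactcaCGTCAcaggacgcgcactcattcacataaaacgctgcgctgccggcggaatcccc
Dusp8: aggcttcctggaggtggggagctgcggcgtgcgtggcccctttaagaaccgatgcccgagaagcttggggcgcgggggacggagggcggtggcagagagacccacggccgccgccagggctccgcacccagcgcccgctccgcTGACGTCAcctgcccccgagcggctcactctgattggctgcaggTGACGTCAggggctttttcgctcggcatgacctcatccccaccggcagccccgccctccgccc
Dusp1: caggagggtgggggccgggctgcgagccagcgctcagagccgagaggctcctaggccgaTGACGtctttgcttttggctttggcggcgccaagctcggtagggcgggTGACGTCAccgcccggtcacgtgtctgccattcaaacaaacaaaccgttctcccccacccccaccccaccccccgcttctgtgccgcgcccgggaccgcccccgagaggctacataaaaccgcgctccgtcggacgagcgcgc
The Dusp8 window held 2 full CREs, which begin 107 and 63 bases before the start, and the Dusp1 window held 1, which begins 143 bases before it. Of all 32851 promoters of the table, taken over windows of the same length, 1.79% held a full CRE. The Dusp5 window held 2 adjoining CArG boxes, which begin 82 and 72 bases before the start, a motif found in 1.63% of all promoters. The CRE core was also in the Dusp16 window, so that 4 of the 8 windows held it, against 20.8% of all promoters. The AP-1 motif TGANTCA (7.81% of all promoters), the ETS motif CCGGAAGT (3.89%), the NF-kB motif (8.46%) and the glucocorticoid receptor hexamer AGAACA (19.0%) had no match in the 8 windows. A match is a description of the letters and was not tested as a binding site.

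In control the genes for inducible nuclear phosphatases had the highest levels. Levels of different genes are compared as deposited FPKM, which scales counts to gene length and library total. In control, Dusp5 stood at 54.6 ± 15.0 FPKM (SD, n = 5), Dusp4 at 47.1 ± 13.0 FPKM and Dusp1 at 43.7 ± 7.65 FPKM, and the ranges of these neighbours overlapped. Dusp6 followed at 26.4 ± 2.28 FPKM, Spry2 at 14.0 ± 2.17 FPKM and Dusp16 at 8.30 ± 0.671 FPKM, each apart from its neighbours in every library. The lower end was made up of Dusp10 (4.80 ± 0.780 FPKM), Spry4 (3.76 ± 0.723 FPKM) and Dusp8 (2.78 ± 0.270 FPKM), with neighbours overlapping, and of Spry1 (1.35 ± 0.318 FPKM), which lay below all of them. Spry2 was thus the most abundant Sprouty gene at rest and Spry1 the least abundant.

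This order changed under treatment. In LPS, Dusp1 had the highest mean at 44.7 ± 12.7 FPKM but overlapped Dusp4 at 25.5 ± 9.25 FPKM, while Dusp5 came lower at 13.4 ± 3.31 FPKM. Dusp10, at 2.21 ± 0.860 FPKM, was last and overlapped Spry4 at 3.32 ± 0.266 FPKM. In Rg1 plus LPS, Dusp1 at 71.4 ± 26.6 FPKM and Dusp6 at 32.8 ± 3.87 FPKM were the first and the second and did not overlap each other or any other member. Below them Dusp4 (14.2 ± 5.70 FPKM), Dusp5 (10.5 ± 1.75 FPKM), Spry2 (10.4 ± 1.00 FPKM) and Dusp16 (6.98 ± 1.91 FPKM) formed a run of overlapping neighbours. A similar run of Dusp8 (3.93 ± 0.618 FPKM), Spry1 (3.37 ± 1.61 FPKM), Dusp10 (2.26 ± 0.639 FPKM) and Spry4 (2.13 ± 0.234 FPKM) closed the order.

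The summed level of the 7 phosphatase genes was 188 ± 36.5 FPKM in control, 131 ± 25.9 FPKM in LPS and 142 ± 39.0 FPKM in Rg1 plus LPS, and the libraries of the groups overlapped. Its make-up did not overlap for Dusp1, which supplied 22.5% to 24.9% of the sum in control libraries, 30.0% to 36.7% in LPS and 44.1% to 55.6% in Rg1 plus LPS. The share of Dusp5 was 25.1% to 31.2% in control, 8.85% to 12.2% in LPS and 6.42% to 8.41% in Rg1 plus LPS. Dusp4 supplied 22% to 27.3%, 14.0% to 23.6% and 7.98% to 11.4%. The sum of the 3 Sprouty genes was 19.1 ± 2.64, 19.0 ± 0.510 and 15.9 ± 1.22 FPKM in these groups. FPKM uses library totals without the TMM factors, which were 0.9518 to 0.9882 in LPS and 1.02 to 1.06 in Rg1 plus LPS. The summed levels of different groups are thus not on the scale of the tests, and their difference between LPS and Rg1 plus LPS depends on the scaling. Shares within a library do not depend on it. These sums and shares are descriptions without a test.

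**Figure D1:**
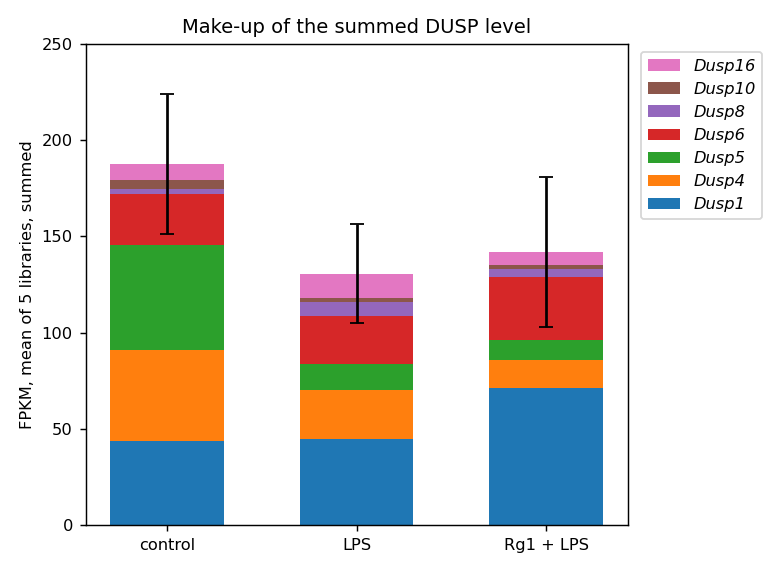
Stacked bars show the mean FPKM of each of the 7 phosphatase genes (5 libraries a group, y axis from 0), and error bars show the SD of the summed level. FPKM carries no TMM factor, so bar heights of different groups are not on the scale of the tests. The Dusp5 and Dusp4 segments shrink from control to LPS to Rg1 + LPS, and the Dusp1 segment is widest in Rg1 + LPS, where it is 71.4 FPKM of a sum of 142.

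LPS against control asks which of these genes respond to LPS, the treatment the submitters label SCI. Of the 10 genes, 3 rose and 4 fell. Spry1 rose 4.89-fold, Dusp8 2.65-fold and Dusp16 1.59-fold. Dusp5 fell to 0.251 of its control level, Dusp10 to 0.473, Dusp4 to 0.556 and Spry2 to 0.683. Dusp1, Dusp6 and Spry4 did not pass the test. Of all genes tested, 13.8% rose and 9.82% fell, 23.7% in all (edgeR, adjusted p under 0.05). The median absolute log2 fold change was 0.76 over the 10 genes and 0.21 over all genes tested. The signed median was -0.09 over the 10 genes and 0.00 over all genes.

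Dusp5, which encodes a nuclear phosphatase specific for ERK, had 106, 66.5, 78.3, 110 and 138 CPM in control replicates 1 to 5. In the LPS replicates it had 23.7, 19.5, 22.4, 34.9 and 24.8 CPM. Every LPS library was far below every control library (log2 fold change -1.99 ± 0.20, SE, adjusted p = 1.69e-06). Dusp4, whose product acts on ERK and JNK in the nucleus, had 301, 188, 222, 284 and 395 CPM in control and 180, 110, 82.7, 206 and 194 CPM in LPS. The groups overlapped, since LPS replicates 4 and 5 lay above control replicate 2. Its log2 fold change of -0.85 ± 0.29 passed narrowly (adjusted p = 0.0485). The Dusp4 call ended without LPS replicate 1 (adjusted p = 0.0671), 2 (0.104), 3 (0.0693) or 5 (0.0535), or without control replicate 1 (0.0822), 3 (0.055), 4 (0.0793) or 5 (0.112). A setting chosen after seeing the data left out LPS replicates 2 and 3 and control replicate 4. These libraries had the highest microglia marker sums (94.4, 114 and 120 CPM), and the Dusp4 log2 fold change was then -0.52 (adjusted p = 0.241). LPS replicates 2 and 3 were also the lowest LPS libraries for Dusp4 itself, so leaving them out had to shrink its fall. The part of the microglia markers was not tested by this. Dusp1, the broad inducible MAPK phosphatase gene, had 85.5, 70.5, 72.9, 88.4 and 110 CPM in control and 102, 71.1, 58.9, 120 and 98.1 CPM in LPS. These sets overlapped widely (log2 fold change 0.07 ± 0.23, adjusted p = 0.851). Dusp6, the cytoplasmic ERK phosphatase gene, spanned 77.9 to 94.5 CPM in control and 68.1 to 108 CPM in LPS (log2 fold change -0.04 ± 0.12, adjusted p = 0.823).

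The 3 genes for phosphatases of JNK and p38 moved in different directions. Dusp8 had 15.2, 13.2, 14.5, 16.3 and 17.4 CPM in control and 39.9, 36.0, 41.7, 43.5 and 42.4 CPM in LPS. The groups were fully apart and each was tight (log2 fold change 1.41 ± 0.10, adjusted p = 2.07e-08). Dusp16 had 46.9, 50.1, 43.6, 42.2 and 42.1 CPM in control and 67.3, 72.2, 74.9, 78.3 and 64.0 CPM in LPS, again without overlap (log2 fold change 0.66 ± 0.13, adjusted p = 0.00174). Dusp10 moved the other way, with 43.7, 33.7, 34, 40.9 and 50.4 CPM in control and 18.0, 16.2, 13.7, 31.6 and 16.4 CPM in LPS (log2 fold change -1.08 ± 0.22, adjusted p = 0.00243). The highest LPS library, replicate 4, nearly reached the control range, and the other LPS libraries lay at 18.0 CPM or below.

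The Sprouty genes also split. Spry1 had 2.94, 4.66, 3.18, 3.51 and 2.66 CPM in control and 15.9, 17.7, 20.5, 12.2 and 16.8 CPM in LPS. The lowest LPS library was above the highest control library (log2 fold change 2.29 ± 0.30, adjusted p = 3.36e-05). Control libraries held 95 to 172 counts of Spry1, the fewest of any member. Its SE (0.298) was nonetheless close to that of Dusp4 (0.294), which had 6950 to 14082 counts in control libraries. Spry2 had 58.7, 53.2, 55.6, 66.0 and 78.8 CPM in control and 46.8, 40.3, 39.7, 47.1 and 39.3 CPM in LPS, with no overlap (log2 fold change -0.55 ± 0.10, adjusted p = 0.000725). Spry4 spanned 29.1 to 50.8 CPM in control and 33.0 to 39.0 CPM in LPS and did not pass (log2 fold change -0.14 ± 0.12, adjusted p = 0.422). In all, the groups did not overlap for 6 of the 10 genes, 3 higher and 3 lower, against 20.4% of all genes tested (12.8% higher and 7.64% lower).

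**Figure D2:**
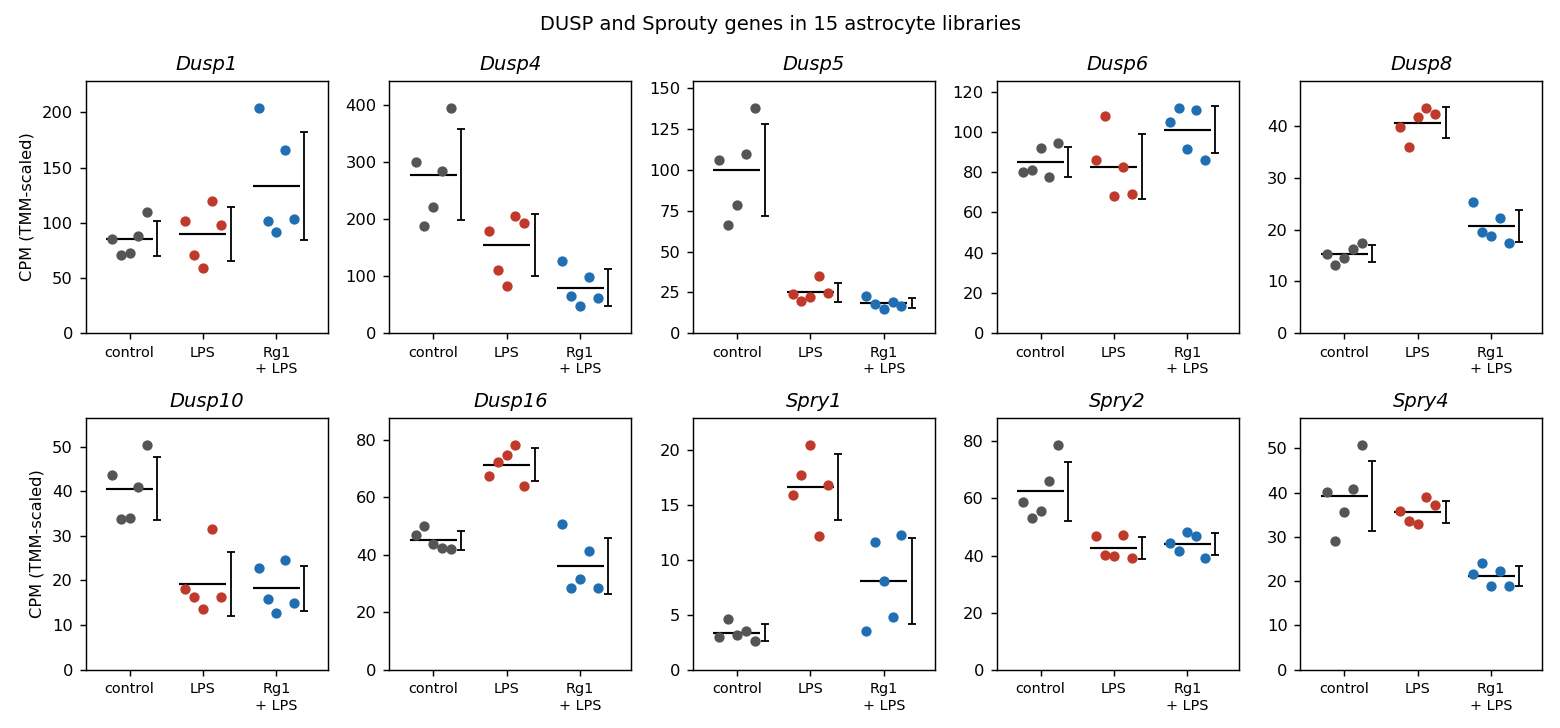
Each panel shows 1 gene in CPM (linear y axis from 0), with 1 point per library in replicate order, a line at the group mean and a bar of 1 SD beside it (n = 5 a group). Dusp8, Dusp16 and Spry1 are highest in LPS, Dusp4, Dusp5, Dusp10 and Spry2 are highest in control, and the Rg1 + LPS points of Spry1 and Dusp1 are widely spread.

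Rg1 plus LPS against LPS addresses how these genes differ when Rg1 precedes LPS. Of the 10 genes, 5 fell and 0 rose at an adjusted p under 0.05. Dusp16 fell to 0.506 of its LPS level, Dusp8 to 0.509, Spry1 to 0.487, Dusp4 to 0.516 and Spry4 to 0.593. Among all genes tested 23.2% fell and 22.2% rose, 45.4% in all. The median log2 fold change was -0.60 over the 10 genes and 0.03 over all genes, and the median absolute one was 0.66 against 0.30. This comparison shares its LPS libraries with the one before, so opposite changes of a gene in the pair are not independent.

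Dusp8 had 25.4, 19.5, 18.8, 22.3 and 17.5 CPM in Rg1 plus LPS replicates 1 to 5, all below the LPS libraries (log2 fold change -0.98 ± 0.10, adjusted p = 8.73e-07). Dusp16 had 50.8, 28.4, 31.5, 41.3 and 28.6 CPM, also all below LPS (-0.98 ± 0.14, adjusted p = 2.35e-05). Dusp10, the other JNK and p38 phosphatase gene, showed no such difference, at 12.8 to 24.6 CPM against 13.7 to 31.6 CPM in LPS (log2 fold change -0.08 ± 0.22, adjusted p = 0.81). Spry4 had 21.7, 24.1, 18.9, 22.4 and 18.9 CPM, well under the LPS minimum of 33.0 CPM (log2 fold change -0.75 ± 0.12, adjusted p = 7.49e-05). Spry1 had 3.53, 11.6, 8.08, 4.84 and 12.3 CPM, and replicate 5 just reached the LPS range (log2 fold change -1.04 ± 0.28, adjusted p = 0.00694). Spry2 overlapped the LPS libraries (39.3 to 47.1 CPM) almost wholly, at 39.1 to 48.3 CPM (log2 fold change 0.05 ± 0.10, adjusted p = 0.723). Of the 10 genes, the groups did not overlap for 3, all lower, against 27.5% of all genes tested (15.1% lower and 12.4% higher).

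Dusp4 went lower still, to 126, 64.8, 48.2, 98.4 and 61.7 CPM, which overlapped the LPS libraries (log2 fold change -0.95 ± 0.30, adjusted p = 0.0156). The other ERK and broad-range phosphatase genes did not pass. Dusp1 had 204, 102, 91.8, 166 and 103 CPM, and replicates 1 and 4 lay above every LPS library while the other 3 lay among them. Its log2 fold change of 0.57 ± 0.23 had an adjusted p = 0.058, which fell under the threshold without Rg1 plus LPS replicate 2 (0.0356), 3 (0.0268) or 5 (0.039) or LPS replicate 4 (0.0335). Dusp6 spanned 86.2 to 112 CPM (log2 fold change 0.29 ± 0.12, adjusted p = 0.0508) and passed without Rg1 plus LPS replicate 3 (0.0379) or 5 (0.022) or LPS replicate 2 (0.00414). Dusp5 had 23.0, 18.1, 14.9, 18.8 and 16.8 CPM (log2 fold change -0.45 ± 0.19, adjusted p = 0.0665) and passed without Rg1 plus LPS replicate 1 (0.0351) or LPS replicate 2 (0.0434). These 3 genes thus lie at the edge of the threshold, Dusp1 and Dusp6 on the higher side and Dusp5 on the lower. With library-size scaling only, which moved the median of all genes to 0.14, Dusp1 (0.68, adjusted p = 0.0252) and Dusp6 (0.40, 0.0103) passed and Dusp10 changed sign to 0.03.

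**Figure D3:**
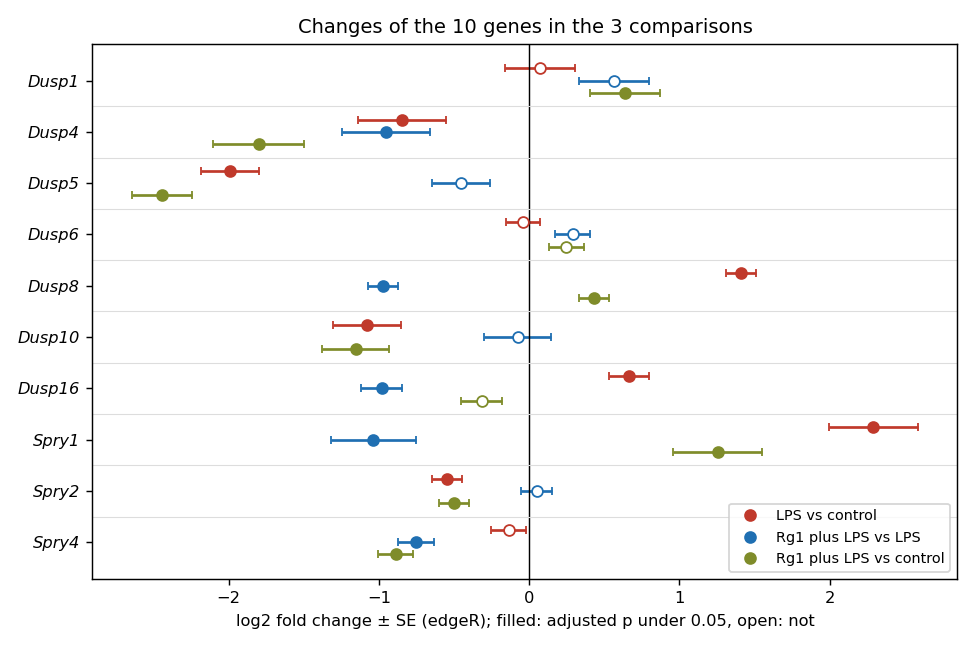
Points show the log2 fold change of each gene with its SE in the 3 comparisons (edgeR, 5 libraries a group), filled where the adjusted p is under 0.05 and open where it is not. Dusp8, Dusp16 and Spry1 lie right of 0 for LPS vs control and left of 0 for Rg1 plus LPS vs LPS, while Dusp4 lies left of 0 in all 3 comparisons.

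Rg1 plus LPS against control places the cells given both agents beside the control cells. Of the 10 genes, 3 rose and 5 fell. Dusp5 stood at 0.184 of its control level, Dusp4 at 0.287, Dusp10 at 0.449, Spry4 at 0.540 and Spry2 at 0.706. Spry1 was 2.38-fold, Dusp1 1.56-fold and Dusp8 1.35-fold above control. Dusp6 and Dusp16 did not pass. Of all genes tested 18.8% rose and 18.1% fell, 36.9% in all. The median log2 fold change was -0.41 over the 10 genes and 0.01 over all genes, and the median absolute one 0.76 against 0.26. The groups did not overlap for 6 of the 10 genes, 1 higher and 5 lower, against 26.2% of all genes tested (13.2% higher and 13% lower).

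For Dusp5 (log2 fold change -2.45 ± 0.20, adjusted p = 3.27e-07) and Dusp4 (-1.80 ± 0.30, adjusted p = 0.000302) every Rg1 plus LPS library lay below every control library. The same held for Dusp10 (-1.16 ± 0.22, adjusted p = 0.000958), Spry2 (-0.50 ± 0.10, adjusted p = 0.00104) and Spry4 (-0.89 ± 0.12, adjusted p = 2.74e-05). Spry4 is the member that LPS did not detectably change and that was lower in Rg1 plus LPS than in both other groups. Dusp8 was slightly above control, with no overlap (0.43 ± 0.10, adjusted p = 0.00313), at 0.509 of the level seen in LPS. Spry1 overlapped control through replicate 1, at 3.53 CPM against a control maximum of 4.66 CPM (1.25 ± 0.29, adjusted p = 0.00368). Dusp16 had a log2 fold change of -0.32 ± 0.14 (adjusted p = 0.0752), and passed without Rg1 plus LPS replicate 1 (-0.47, adjusted p = 0.00195). Dusp6 had 0.25 ± 0.12 (adjusted p = 0.104). Dusp1 rose by 0.64 ± 0.23 (adjusted p = 0.0417), with 3 of 5 libraries within the control range. The Dusp1 call ended without Rg1 plus LPS replicate 1 (0.43, adjusted p = 0.122) or 4 (0.55, adjusted p = 0.0953). It also ended without control replicate 1 (adjusted p = 0.0719), 2 (0.0966), 3 (0.0924) or 4 (0.0628). With the gene length trend removed its adjusted p was 0.121.

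Libraries of one group differed in several of these genes together. Within Rg1 plus LPS, replicate 1 was the highest library for 5 of the 10 genes (Dusp1, Dusp4, Dusp5, Dusp8 and Dusp16) and the lowest for Spry1. Replicate 4 was among the 2 highest libraries for 9 of the 10 genes, Spry1 being the exception. Within LPS, replicate 4 was highest for 8 genes and lowest for Spry1, and replicate 3 was lowest for 5 genes and highest for Spry1. Within control, replicate 5 was highest for 8 genes and lowest for Dusp16 and Spry1, and replicate 2 was lowest for 7 genes and highest for Dusp16 and Spry1. The spread was wide for Dusp4 (coefficient of variation 28.7%, 35.6% and 39.8% in control, LPS and Rg1 plus LPS) and for Spry1 in Rg1 plus LPS (48.7%), and narrow for Dusp8 (10.6%, 7.22% and 15.2%). Replicates of a group have no order, and no batch is given in the labels.

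The fibroblast and pericyte marker sum and Spry1 shared their order of libraries in Rg1 plus LPS, and in part in the other groups. Over Rg1 plus LPS replicates 1 to 5 it was 1780, 4480, 3770, 2480 and 5320 CPM, the same order of libraries as for Spry1. In control it was 4280, 4760, 4270, 4350 and 3590 CPM, with replicate 2 highest and replicate 5 lowest for both. In LPS it was 4500, 5240, 5340, 3940 and 5420 CPM, with replicate 4 lowest for both, but with replicate 5 highest for the sum and replicate 3 for Spry1. Between control and LPS this sum had means of 4250 and 4890 CPM, while Spry1 went from 3.39 ± 0.775 to 16.6 ± 3.00 CPM. The part of these markers in the Spry1 results was not tested. Without Rg1 plus LPS replicates 1 and 4, the libraries with the lowest marker sums, 6 of the 10 genes were lower than in LPS and none was higher at that threshold, while of all genes 3811 were lower and 3662 higher. The Dusp1 difference from control was then 0.21 (adjusted p = 0.437) and the Dusp16 difference -0.61 (adjusted p = 5.62e-05). Replicates 1 and 4 were also the highest libraries of the group for Dusp1 (204 and 166 CPM) and for Dusp16 (50.8 and 41.3 CPM). Leaving them out thus had to lower both values, whatever the markers do, and tells nothing about the part of the markers.

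**Figure D4:**
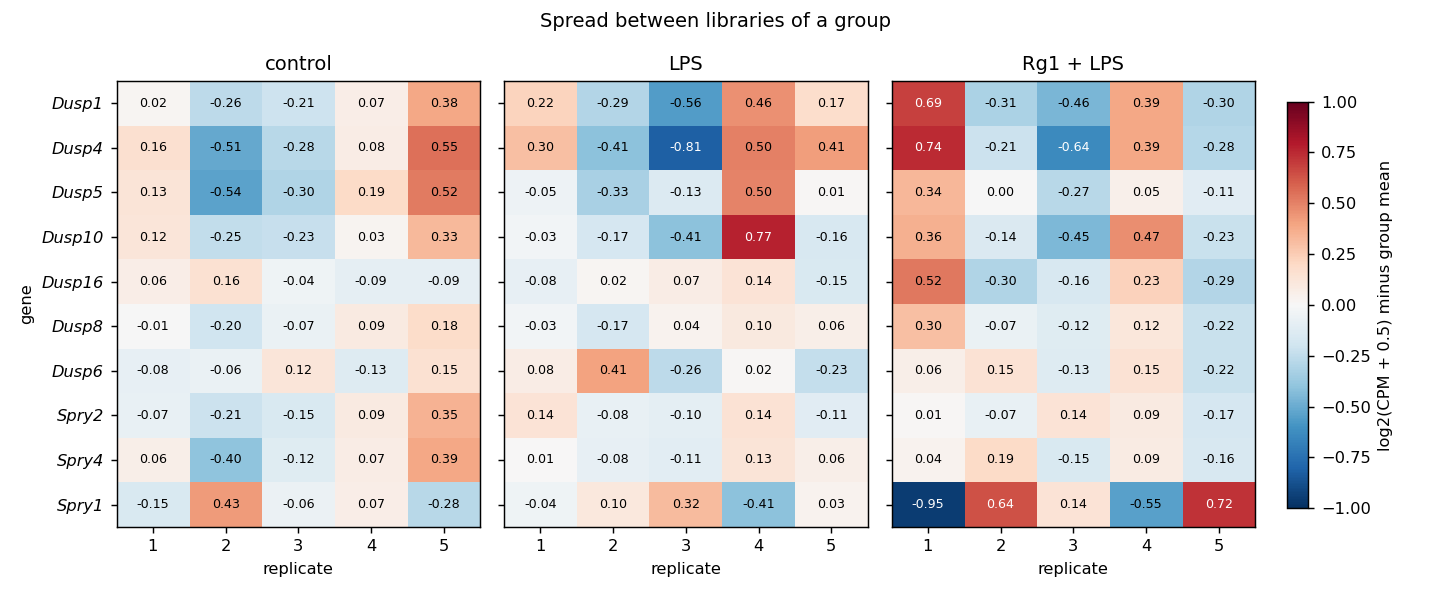
Each cell gives a library's log2(CPM + 0.5) minus its group mean, for the 10 genes (rows) and replicates 1 to 5 of each group (columns). Dusp1, Dusp4, Dusp5 and Dusp10 share their sign in most libraries, such as Rg1 + LPS replicate 1 (0.69, 0.74, 0.34 and 0.36), where Spry1 is at -0.95.

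Related genes of the pathway and of the phosphatase family were described with lists chosen with earlier results of these data known. The phosphatase list goes by family, and whether each product acts on a MAPK was not tested. Of 15 other dual-specificity and MAPK phosphatase genes tested, 1 rose and 4 fell under LPS. Dusp2, an inducible nuclear phosphatase gene of immune cells, stood at 6.77 ± 2.27 CPM in control and 0.573 ± 0.375 CPM in LPS (log2 fold change -3.55 ± 0.445, adjusted p = 2.01e-05) and Dusp14 from 34.9 ± 1.78 to 17.7 ± 1.57 CPM (-0.98 ± 0.08). Dusp18 had -0.50 ± 0.10, and Dusp9, for a cytoplasmic ERK phosphatase, 0.99 ± 0.32. The count of 5 was 3 without LPS replicate 1, 4 or 5 or control replicate 1, 2 or 3. From LPS to Rg1 plus LPS, 5 of the 15 rose and 4 fell. Dusp7, a relative of Dusp6, stood at 20.3 ± 3.41 CPM in LPS and 9.46 ± 1.27 CPM in Rg1 plus LPS (log2 fold change -1.10 ± 0.15, adjusted p = 1.69e-05), Dusp11 had -0.33 ± 0.06, Dusp14 rose by 0.43 ± 0.08 and Dusp23 by 0.87 ± 0.21. Against control, 1 rose and 5 fell. Dusp11 (-0.40 ± 0.06), Dusp14 (-0.55 ± 0.08), Dusp7 (-0.94 ± 0.15) and Dusp2 (-2.14 ± 0.40) led these. The median log2 fold changes of the list were -0.07, 0.17 and -0.19 in these comparisons. Its share of genes called was 33.3%, 60% and 40%, against 23.7%, 45.4% and 36.9% of all genes tested.

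Of 11 genes for other feedback at the level of Ras and receptors, 3 rose and 2 fell under LPS. Lrig1, which restrains EGF receptors, rose by 0.66 ± 0.08, while Errfi1, another EGF receptor inhibitor gene, went from 147 ± 54.7 to 65.3 ± 3.76 CPM (-1.17 ± 0.19). Rasal2, for a Ras GTPase-activating protein, rose by 0.37 ± 0.06, and the Sprouty-related gene Spred2 had -0.33 ± 0.09. With library size only the balance turned to 2 higher and 4 lower. From LPS to Rg1 plus LPS, 1 rose and 5 fell. Rasal2 went from 122 ± 6.76 to 51.1 ± 4.31 CPM (-1.25 ± 0.07, adjusted p = 2.73e-10) and Lrig1 from 257 ± 31.4 to 99.7 ± 9.24 CPM (-1.37 ± 0.08). The ubiquitin ligase gene Cbl had -0.86 ± 0.07 and Nf1, for neurofibromin, -0.62 ± 0.07. Against control, 7 fell and 0 rose, and Rasal2 (-0.88 ± 0.07), Cbl (-0.70 ± 0.07), Lrig1 (-0.71 ± 0.08) and Errfi1 (-1.28 ± 0.19) had the smallest adjusted p. The list medians were 0.14, -0.18 and -0.44. Of the list 45.5%, 54.5% and 63.6% were called, against 23.7%, 45.4% and 36.9% of all genes tested.

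The genes of the kinase cascades themselves followed. Among 18 ERK cascade genes 3 rose under LPS, namely Sos1 (0.44 ± 0.12), Map2k2 (0.19 ± 0.06) and Ptpn11 (0.15 ± 0.05), and the count was 1 without LPS replicate 1, 2 or 5 or control replicate 3, 4 or 5. With Rg1 before LPS, 2 rose and 7 fell relative to LPS, with Ptpn11 at -0.47 ± 0.05, Braf at -0.42 ± 0.07 and Frs2 at -0.41 ± 0.09. That count of 9 was 5 without LPS replicate 1 or 4, and with library size only its balance turned to 6 higher and 3 lower. Against control 5 rose and 4 fell, with Ptpn11 at -0.32 ± 0.05, Braf at -0.38 ± 0.07, Map2k2 at 0.30 ± 0.06 and Hras at 0.35 ± 0.09. The balance of this count depended on the scaling, at 7 higher and 2 lower with library size only and 4 higher and 6 lower with RLE factors or DESeq2. The median absolute log2 fold change of these genes was 0.10, 0.19 and 0.17 in the 3 comparisons. Their share called was 16.7%, 50% and 50%, against 23.7%, 45.4% and 36.9% of all genes tested. Among 22 genes of the JNK, p38 and ERK5 cascades, 6 rose and 2 fell under LPS, and the count of 8 was 5 without LPS replicate 5. Map3k8, which was counted in this list and not among the ERK cascade genes, encodes the kinase that links TLR4 to ERK. Its level rose from 4.30 ± 0.469 to 37.8 ± 2.76 CPM (3.14 ± 0.16, adjusted p = 2.02e-10). Mapkapk2, a p38 target kinase gene, rose by 0.45 ± 0.06 and Map2k7 by 0.30 ± 0.05, while Map2k4 had -0.31 ± 0.06. Relative to LPS, 1 rose and 9 fell in Rg1 plus LPS, with Map3k8 at -2.65 ± 0.15, Mapkapk2 at -0.70 ± 0.06, Map3k7 at -0.45 ± 0.06 and Map2k4 at -0.45 ± 0.06. Against control 5 rose and 8 fell, with Map2k4 at -0.76 ± 0.06, Map3k1 at -1.09 ± 0.16, Rps6ka5 at -0.72 ± 0.14 and Map2k3 at -0.51 ± 0.11. With library size only this balance turned to 7 higher and 5 lower. Of the 22 genes 36.4%, 45.5% and 59.1% were called in the 3 comparisons, against 23.7%, 45.4% and 36.9% of all genes. From LPS to Rg1 plus LPS the count was thus near the share of all genes.

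Genes known as outputs of ERK signalling changed as follows. Of 14, 4 rose and 1 fell under LPS. Ier3, an early response gene, went from 90.7 ± 4.98 to 603 ± 20.4 CPM (2.73 ± 0.09, adjusted p = 7.83e-13), Sh2b3 rose by 0.53 ± 0.10 and Fos by 0.91 ± 0.21, while Etv5 had -0.28 ± 0.05. Between LPS and Rg1 plus LPS, 3 rose and 8 fell. Ier3 (-2.64 ± 0.09), Phlda1 (-1.72 ± 0.14), Sh2b3 (-1.01 ± 0.10) and Egr1 (-1.33 ± 0.17) fell. Against control 1 rose and 7 fell, with Phlda1 at -1.37 ± 0.14, Myc at -0.96 ± 0.12, Epha4 at -0.74 ± 0.10 and Fos, the gene that rose, at 1.67 ± 0.21. The share of these 14 genes called was 35.7%, 78.6% and 57.1%, against 23.7%, 45.4% and 36.9% of all genes tested. Of 8 FGF and EGF receptor genes, 1 rose and 2 fell under LPS, 3 fell in Rg1 plus LPS against LPS, and 4 fell against control (2 without Rg1 plus LPS replicates 1 and 4). Fgfr1, the most abundant of them by CPM, went from 549 CPM in control to 653 CPM in LPS and 443 CPM in Rg1 plus LPS. Among the 8 receptor genes 37.5%, 37.5% and 50% were called in the same order of comparisons.

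**Figure D5:**
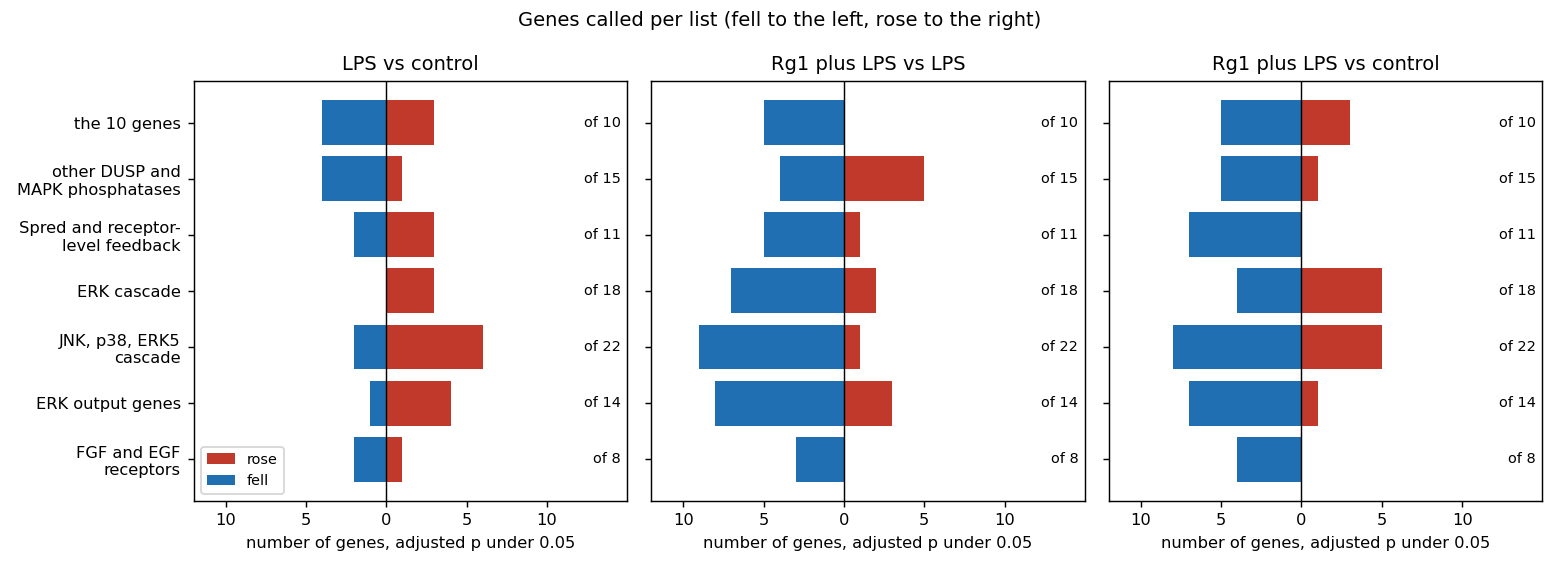
Bars count the genes of each list that rose (right) or fell (left) at an adjusted p under 0.05 in each comparison, with the number tested at the right edge. The middle panel shows that the ERK output list has 8 genes to the left in Rg1 plus LPS vs LPS and 3 to the right, and the 10 DUSP and Sprouty genes have 5 to the left and 0 to the right. Of all genes tested, 23.2% fell and 22.2% rose in that comparison.

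The genes whose levels ran most like each member were found by Pearson's r of log2 CPM over the 15 libraries, among 10647 tested genes whose mean reached 5 CPM, leaving out predicted and Riken symbols. The libraries share 3 groups, so r mixes group differences with the spread within groups. These parts were not separated, and r is given as a description. For Dusp5 they were Klf5 (r = 0.987), Nefm (0.986) and Nptx1 (0.980). Klf5, a Krüppel-like factor gene, went from 27.4 to 9.58 and 7.51 CPM over control, LPS and Rg1 plus LPS. For Dusp4 they were Sema7a (0.976), Abl2 (0.966) and Chp1 (0.966), and for Dusp10 Fam110c (0.960) and Pde4d (0.954). For Dusp8 they were Gdf15 (0.988), Zfp36 (0.976) and Pak4 (0.973). Zfp36, which encodes the mRNA-destabilising protein tristetraprolin, had 22.1, 93.4 and 29.9 CPM. For Dusp16 they were Mafg (0.981), Ammecr1l (0.974) and Patl1 (0.973). Spry1 was matched by Mov10 (0.981) and Pgf (0.955), Spry2 by Ugdh (0.938), Gja4 (0.929) and Ppat (0.923), and Spry4 by Ugcg (0.973), Lipg (0.966) and Dot1l (0.964). Dusp1 was most like Smyd4 (0.947), Cryab (0.945) and Crlf3 (0.937), and Dusp6 had the lowest top values of the 10, with Ppwd1 (0.836), Ankrd10 (0.827) and Srek1ip1 (0.824).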

How the data were processed

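RNA from 15 mouse astrocyte libraries was used, extracted with TRIzol and prepared with a VAHTS Universal V6 kit, per the labels' protocols. GRCm38 and mm10 are the builds in the submitters' processing notes. Aligner, counter, annotation and strandedness: not given in the sources used here. The files deposited by the authors hold raw counts and FPKM by gene symbol. The deposited FPKM equalled count over total count and a constant per gene, with a largest relative deviation of 7.22e-10. This constant was derived from the same counts and FPKM and was not compared with an annotated gene length. In the deposited FPKM files 37 symbols were damaged and were left out. The members were intact.

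Tests used edgeR 4.0.16 under R 4.3.3. Genes were kept by filterByExpr, scaled by TMM and fitted in 1 quasi-likelihood model of all 15 libraries with the group as its term. Each of 3 comparisons was a two-sided F-test, with Benjamini-Hochberg adjustment over all 15362 genes and a threshold of 0.05. The SE is the absolute log2 fold change over the root of F. Log2 CPM had a prior count of 2. The code was tested on simulated data. No 2 libraries of a group agreed within sampling noise (chi-square per degree of freedom at least 6.73). The 10 members and all lists were chosen with earlier results of these data known. All members are named. Of other lists up to 4 genes per comparison in order of adjusted p are named. The 3 genes of highest Pearson r to each member are named too. A few genes under these rules are not reported here. Of 101 pathway symbols 100 were found and 98 tested. Each group has 5 libraries of 34.2 to 41.76 M counts. Alternatives were RLE factors, library size only, DESeq2 1.42.0, limma voom 3.58.1, no filter, 2 groups only, a replicate block, a gene length trend and leaving out each library. PCR copies are not independent molecules.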

Additional observations from a re-analysis of the deposited data

Results flagged for a closer look

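Of 30 sets of 5 libraries (10 genes in 3 groups), 1 held a library far from the others. Dusp10 in LPS replicate 4 was at 31.6 CPM, while the other 4 LPS libraries lay between 13.7 and 18.0 CPM. Chance flags about 1 in 20 such sets. The gap was 0.759 of the range of the group. Without this library the log2 fold change of Dusp10 was -1.33 in LPS against control and 0.18 in Rg1 plus LPS against LPS (adjusted p = 0.463), where it was -0.08 with all libraries.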

How the results depend on the processing

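Under the other scalings, tools, filters and fits and with each library left out, the calls of Dusp5, Dusp8, Dusp10, Dusp16, Spry1 and Spry2 in LPS against control held, as did those of Dusp4, Dusp8, Dusp16, Spry1 and Spry4 in Rg1 plus LPS against LPS and those of Dusp4, Dusp5, Dusp8, Dusp10, Spry1, Spry2 and Spry4 in Rg1 plus LPS against control. The number of members changed was 7 in LPS against control, 6 to 7 under all alternatives. From LPS to Rg1 plus LPS it was 5, and 5 to 7 when 1 library was left out. It was 8 (2 higher, 6 lower) with a replicate block, where Dusp1 (0.56, adjusted p = 0.0116), Dusp5 (-0.43, adjusted p = 0.0307) and Dusp6 (0.30, adjusted p = 0.0447) passed. Same-numbered libraries of these 2 groups had deviations correlated at 0.0499 to 0.424, 4 of 5 over 0.1, and 3 of 5 were best matched by their own number. In the other comparisons, which include control, the correlations were -0.222 to 0.155 and -0.218 to 0.136. The labels do not say whether LPS and Rg1 plus LPS libraries of the same number belong together. The main fit treats them as unpaired, and its counts hold on that reading. Against control the count in Rg1 plus LPS was 7 to 9 under all alternatives, and with the replicate block Dusp16 passed (-0.34, adjusted p = 0.0473). The block also moved the ERK output genes changed under LPS from 5 to 8.

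Signs changed only in values that did not pass. Dusp10 in Rg1 plus LPS against LPS was at 0.03 with library size only, 0.14 with the length trend removed and -0.19 to 0.18 with a library left out. In LPS against control Dusp1 was at -0.05 to 0.18 and Dusp6 at -0.16 to 0.01 with a library left out. With no filter on low counts the Dusp4 call under LPS (adjusted p = 0.118) and the Dusp1 call against control (0.118) ended. The latter also ended with limma voom (0.0507). For Rg1 plus LPS against LPS, DESeq2 called Dusp1 (0.0366) and Dusp5 (0.0421), and the fit of the 2 groups alone (0.0362) and the length correction (0.0209) called Dusp5. With limma voom Dusp6 passed there (0.0404) and Dusp16 passed against control (0.0449). Library size only moved the share of higher calls among all genes from 58.5% to 45.9%, from 48.9% to 65.0% and from 50.9% to 63.9% in the 3 comparisons. The causes of these shifts were not tested. The 2 alternatives that left out several libraries were chosen after seeing the data. Of the FGF and EGF receptor genes 2 instead of 4 differed from control with library size only or the length correction. ERK cascade genes changed under LPS were 1 instead of 3 with library size only or no filter, and those from LPS to Rg1 plus LPS 5 instead of 9 with no filter or 2 groups only. Spry1 had the fewest counts of the members, at 95 to 172 per control library.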
